A study of Rattus norvegicus with 10 samples.

Results

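Oxytocin and vasopressin are the peptide hormones of the posterior pituitary, and the genes described here are the precursors *Oxt* and *Avp* with the receptors *Oxtr* and *Avpr1a*. Members were the rows of the deposited gene table whose symbol is one of these 4 names. Of the 4, *Oxt*, *Avp* and *Avpr1a* have a row each, so that 3 of 12828 rows belong to the set. *Oxtr*, the oxytocin receptor, has no row in the table and its level was not analysed here.

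RNA-seq was carried out on poly-A RNA from the arcuate nucleus (ARC) of 10 Wistar dams killed upon parturition. Of these, 5 dams ate folic acid (FA) and 5 ate methylfolate (MTHF) while pregnant, each at 5 times the requirement (5X-FA and 5X-MTHF). No 1X group was among the libraries, so both diets are high-folate diets. The ARC was cut free-hand from a frozen coronal slice with the third ventricle as the guide, and the tissue is therefore a block of the mediobasal hypothalamus and not a sorted cell population.

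The value used for each gene is the authors' average log2 CPM, the gene's share of a library's reads, over all libraries. Its heading does not tell an average of log2 values from the log2 of an average. Turned back to CPM, the values sum to 1002152 over all rows. A further 10 columns of values per library carry headings that match no dam, and they were left aside. Levels of single dams, SDs and tests between 5X-FA and 5X-MTHF dams are therefore absent for all genes. In 1 of these 10 columns *Oxt* and *Avp* stood far below their values in the others, as read on inspection only. That column can be assigned to no dam and no diet, and no average without it was computed, so that each level, rank, fold and share of *Oxt* and *Avp* given here is an average over libraries that were not alike and may not describe a typical dam. The average does not show the depth of any library either, and the order of genes of similar level cannot be held against a spread between dams.

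*Oxt* and *Avp* are made mainly by magnocellular neurons of the paraventricular and supraoptic nuclei, which send axons through the median eminence to the posterior pituitary. *Avp* is also expressed in the suprachiasmatic nucleus. Each precursor carries the nonapeptide together with a neurophysin, its carrier protein, and the hormone is cut free inside dense core vesicles. Oxytocin drives uterine contraction at birth and milk ejection afterwards, and vasopressin acts on water retention by the kidney. In the brain both peptides act through G protein-coupled receptors, of which OXTR and the V1a receptor encoded by *Avpr1a* couple to Gq and phospholipase C.

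The sequence just upstream of each precursor gene is shown because the genes are neighbours, yet each is read from a promoter of its own. Both are from RefSeq, build GRCr8, and cover the 250 bases before the annotated start, 5′ to 3′ on the strand of the gene. The *Oxt* window is chr3:138235504-138235753 on the plus strand, and the *Avp* window is chr3:138248523-138248772 on the minus strand. Capitals mark the nuclear receptor half-site AGGTCA or its shorter form GGTCA on either strand in *Oxt*, the E-box CACGTG in *Avp*, and in both the letters ATAAA nearest to the start.
Oxt: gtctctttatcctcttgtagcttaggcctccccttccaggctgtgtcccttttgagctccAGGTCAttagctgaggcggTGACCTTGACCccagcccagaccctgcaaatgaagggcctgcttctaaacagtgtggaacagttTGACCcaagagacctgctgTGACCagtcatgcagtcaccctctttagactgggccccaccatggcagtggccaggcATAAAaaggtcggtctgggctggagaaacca
Avp: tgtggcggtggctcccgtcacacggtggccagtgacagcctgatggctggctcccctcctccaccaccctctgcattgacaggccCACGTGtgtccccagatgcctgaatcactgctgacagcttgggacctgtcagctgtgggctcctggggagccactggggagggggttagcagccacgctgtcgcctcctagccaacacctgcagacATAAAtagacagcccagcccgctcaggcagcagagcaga

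The half-site AGGTCA, a motif bound by many nuclear receptors, occurs 2 times in the *Oxt* window, with its first base 190 and 171 bases before the start. It is in 14.1% of the 33469 RefSeq windows of this length when both strands are searched. The *Avp*, *Oxtr* and *Avpr1a* windows hold 0 copies. Its last 5 letters, GGTCA, which overlap every AGGTCA, occur 5 times in the *Oxt* window, 2 times in the *Oxtr* window and 0 times in the *Avp* and *Avpr1a* windows, and 35.4% of all windows hold at least 1 copy.

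The E-box CACGTG, a motif recognised by basic helix-loop-helix factors such as CLOCK and ARNTL, occurs 1 time in the *Avp* window, 165 bases before the start, and in 5.59% of all windows. The *Oxt*, *Oxtr* and *Avpr1a* windows hold 0 copies. The letters ATAAA, part of the TATA box, begin 31 bases before the start in *Oxt* and 39 bases before it in *Avp*, whereas 39.3% of all windows hold them anywhere on either strand. The full TATA box TATAAA is in neither precursor window, and the cyclic AMP response element TGACGTCA is in none of the 4. GC content was 55.2% for *Oxt*, 63.6% for *Avp*, 56.4% for *Oxtr* and 58.0% for *Avpr1a*, against a median of 51.2% over all windows. *Oxt* had 2 CpG dinucleotides and *Avp* had 7, and the median window had 5. These matches describe letters in a window and were not tested for binding or use.

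In the average over all libraries, both peptide precursors were among the abundant transcripts of the dissected tissue. *Oxt* (ENSRNOG00000021225) had an authors' average log2 CPM of 8.33, which is 322 CPM, and ranked 412 from the top of the 12828 rows. *Avp* (ENSRNOG00000021229) had an average log2 CPM of 7.96, or 249 CPM, and ranked 633. The median row had an average log2 CPM of 4.94, and the rows ran from -2.07 to 14.56. Together the precursors made up 0.0569% of the summed CPM of the table.

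*Avpr1a* (ENSRNOG00000004400), the receptor, stood near the other end of the rows, which are those left after the authors' filter. Its average log2 CPM was 1.80, or 3.49 CPM, at rank 12096, so that 5.71% of all rows were lower. In these averages the ligand *Avp* was 71.3-fold higher than *Avpr1a* as a share of reads. In bulk tissue fewer cells of a type and less RNA per cell cannot be told apart.

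**Figure D1:**
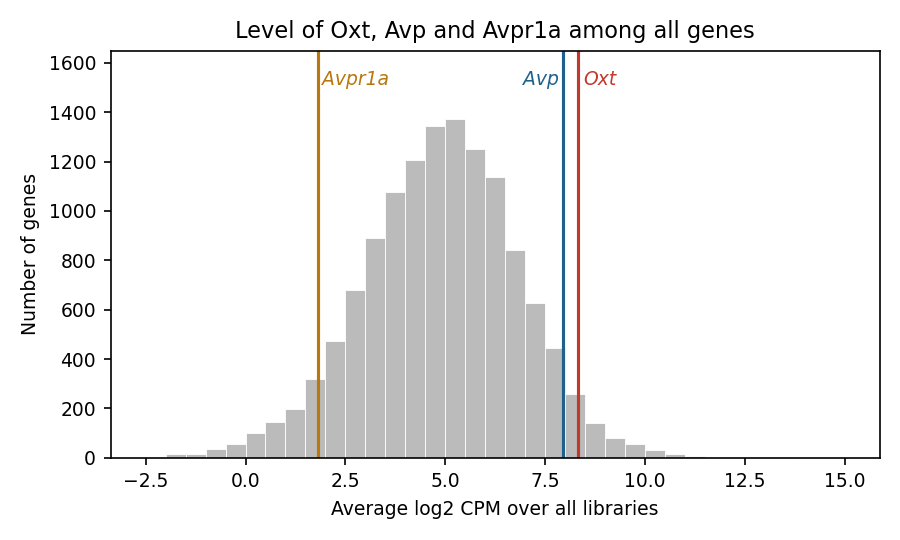
Histogram of the authors' average log2 CPM over all libraries (x axis, log2 scale, bins of 0.5) against the number of genes (y axis), with a vertical line for each of *Avpr1a* (1.80), *Avp* (7.96) and *Oxt* (8.33). Both precursors lie in the upper tail and the receptor lies in the lower tail.

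CPM is a share of reads and is not divided by transcript length, and long transcripts give more reads per molecule. For this reason the CPM was also divided by the length of the gene on the chromosome, introns included, as the deposited coordinates give it. This is a lower bound of the CPM per kilobase of mRNA for the annotated gene, and it understates genes with long introns more than compact ones. The *Oxt* gene spans 841 bases, the *Avp* gene 1969 bases and the *Avpr1a* gene 4229 bases, against a median of 21.5 kb over all rows.

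On this scale *Oxt* had 383 CPM per kilobase of gene and ranked 25 of all rows, and *Avp* had 126 CPM per kilobase and ranked 92. *Avpr1a* had 0.825 CPM per kilobase, and 35.0% of all rows were lower. *Avp* was thus 153-fold higher than *Avpr1a* per kilobase of gene. *Oxt* was above *Avp* by 0.37 log2 units as a share of reads (1.29-fold) and by 1.60 log2 units per kilobase of gene (3.03-fold). The size of the gap between the precursors thus depended on the length used, and whether it exceeds the spread between dams was not tested. *Oxt* and *Avp* also share a near-identical middle exon, and read pairs that fit both genes can be lost or split in counting. Their part in these levels was not tested.

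The precursors were next placed among other hypothalamic peptide genes, a group drawn up after the values were seen. Of 21 such genes, 19 have a row. The arcuate peptide gene *Npy* (neuropeptide Y) and *Nms* (neuromedin S) have none, and where they would stand was not analysed here. Only *Pmch*, the precursor of melanin-concentrating hormone in the lateral hypothalamus, had more reads than *Oxt*, at an average log2 CPM of 9.24. *Oxt* followed in read share and *Avp* came after *Oxt*. The next genes were *Pdyn* (prodynorphin) at 6.61 and *Sst* (somatostatin) at 6.35 in average log2 CPM.

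Summed over these averages, *Oxt* and *Avp* contributed 33.8% of the 1689 CPM that the 19 precursor genes sum to, with 19.0% from *Oxt* and 14.7% from *Avp*, and *Pmch* contributed 35.7%. Per kilobase of gene the order of the first 2 was the other way round, since *Oxt* was at 8.58, *Pmch* at 7.75 and *Avp* at 6.98 on the log2 scale. No other precursor with a row was above *Avp* on either scale.

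Peptides of the parvocellular paraventricular nucleus were lower than *Oxt* and *Avp*. *Trh* (thyrotropin-releasing hormone) had an average log2 CPM of 5.96, and *Crh* (corticotropin-releasing hormone) had one of 2.76. Arcuate peptides, which the labelled tissue should hold, were at 6.02 for *Cartpt*, 4.67 for *Pomc*, 4.34 for *Tac3*, 1.42 for *Agrp*, 1.02 for *Ghrh* and 0.08 for *Kiss1* in average log2 CPM. In average read share, all 6 of these were below both *Oxt* and *Avp*, whose neurons lie mostly outside the ARC.

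**Figure D2:**
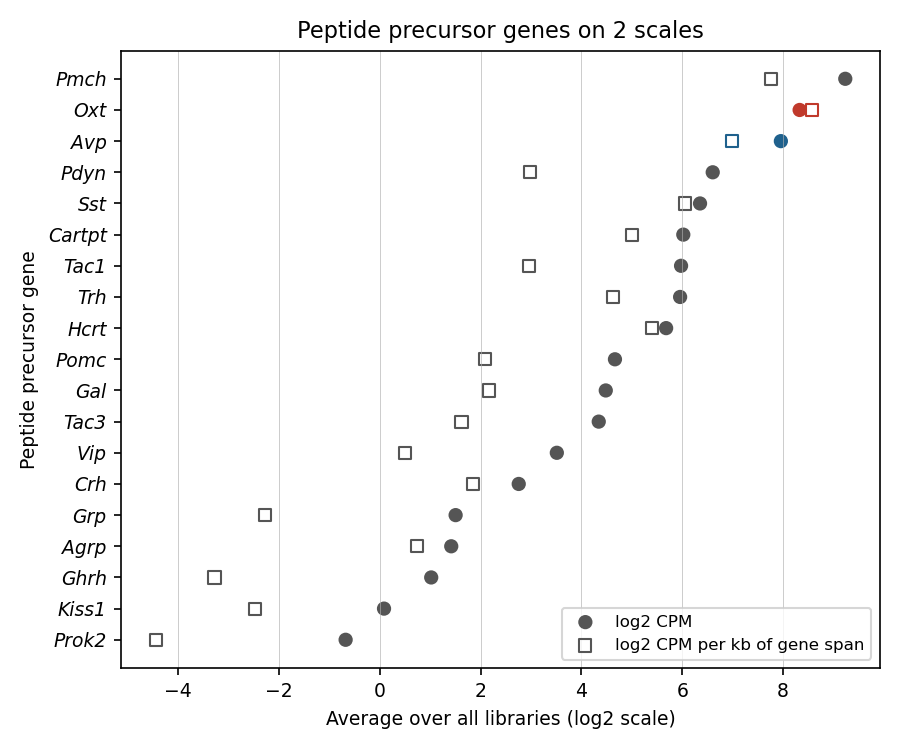
Authors' average for each of 19 peptide precursor genes (y axis, in order of read share) on a log2 scale (x axis), with filled circles for log2 CPM and open squares for log2 CPM per kilobase of gene span. *Oxt* (8.33 and 8.58) and *Avp* (7.96 and 6.98) lie above the other genes on both scales, *Pmch* (9.24 and 7.75) excepted.

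Marker genes of the regions that hold *Oxt* and *Avp* neurons were then read from the same column. Of 6 magnocellular genes, which include *Oxt* and *Avp* themselves, 6 have a row, and the other 4 lay far below the peptides. *Caprin2*, an RNA-binding protein of magnocellular neurons, was at 5.15, *Sim1* and *Otp*, transcription factors needed for these neurons to form, were at 4.54 and 3.66, and *Creb3l1*, a transcription factor of the *Avp* neuron, was at 2.88 in average log2 CPM. For the suprachiasmatic nucleus, 6 of 8 genes have a row, with a median average log2 CPM of 2.21. The highest of them were *Syt10* at 3.78 and *Vip* at 3.51, and *Prok2* was at -0.68. For the arcuate nucleus 8 of 10 genes have a row, with a median of 2.17. The part of each nucleus in the *Oxt* and *Avp* values was not tested.

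Of the 7 pituitary genes on the marker list 2 have a row, *Cga* at 4.95 and *Tshb* at 3.37 in average log2 CPM. *Gh1*, *Prl*, *Lhb*, *Fshb* and *Pou1f1* have none. Markers of striatum and of cortex and hippocampus were also measured, with 9 of 9 and 6 of 8 genes in the table and medians of 5.37 and 4.32. The highest were *Ppp1r1b*, a striatal phosphatase inhibitor, at 7.07 and *Slc17a7*, the cortical vesicular glutamate transporter, at 7.17. Both were below *Oxt* and *Avp*.

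The genes of the pathway from neuron identity to receptor signalling are listed by role. Of 18 genes of magnocellular, paraventricular and supraoptic development and identity, 18 have a row, and 11 were above the median of all rows. Their median average log2 CPM was 5.40. The highest were *Peg3*, an imprinted zinc finger gene, at 11.38, *Nefm*, a neurofilament subunit, at 8.26 and *Slc17a6*, the vesicular glutamate transporter of hypothalamic neurons, at 8.09. *Nefm* and *Slc17a6* are also expressed by many other neurons. *Pdyn*, whose dynorphin is stored with vasopressin, is also on this list.

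Genes that process prohormones and fill dense core vesicles were mostly abundant. Of 15 such genes 13 have a row, and all 13 were above the median of all rows. Their median average log2 CPM was 7.81, and 6 were above *Avp* and 5 above *Oxt* in read share. Over all rows, 95.1% were below *Avp* and 96.8% below *Oxt*. *Cpe* (carboxypeptidase E), which trims the cut peptide, was at 10.74, *Scg2* (secretogranin II), a granule protein, was at 9.84, and *Pam*, the enzyme that amidates oxytocin and vasopressin at the carboxyl end, was at 8.89. The list includes *Sst*, itself a peptide. *Pcsk1* and *Pcsk1n* have no row. Per kilobase of gene, 0 of the 13 were above *Oxt* and 1, *Scg2*, was above *Avp*. On that scale 99.8% of all rows were below *Oxt* and 99.3% below *Avp*.

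Of 5 genes of peptide release and breakdown, 4 have a row. *Syt4*, a synaptotagmin of peptide vesicles, was at 8.66, *Stx1a*, a plasma membrane SNARE, was at 5.89, and *Cd38*, whose product is needed for oxytocin release, was at 5.19 in average log2 CPM. *Lnpep*, which encodes the oxytocin-degrading aminopeptidase, has no row.

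On the receptor side, 1 of the 4 genes of the oxytocin and vasopressin receptor family has a row, *Avpr1a*. *Oxtr*, *Avpr1b* and *Avpr2* have none. Downstream of the V1a receptor, 17 of 19 genes of Gq signalling have a row, 14 of them above the median of all rows. *Itpr1*, the calcium release channel, was at 8.09, *Rgs4*, which shortens Gq signals, was at 7.61 and *Grk2*, a receptor kinase, was at 7.50 in average log2 CPM. All 17 were above *Avpr1a* in read share, and 9 were above it per kilobase of gene. Over all rows, 5.71% were below *Avpr1a* in read share and 35.0% per kilobase of gene. The Gq genes serve many receptors.

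Most other peptide receptors were below the median of all rows as well. Of 36 receptor genes of hypothalamic peptides, a list written after the member values were seen, 27 have a row, with a median average log2 CPM of 3.14, and 2 were above the median of all rows, *Ntsr2* (a neurotensin receptor) at 6.65 and *Sstr1* (a somatostatin receptor) at 5.15. *Avpr1a* was 24th in read share, with 23 above it. Per kilobase of gene 15 were above it. Over all rows, 5.71% were lower than *Avpr1a* in read share and 35.0% per kilobase of gene. The scales differ here because receptor genes vary widely in gene span, from 1098 bases for *Mc3r* to 250146 bases for *Oprm1*.

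Receptors for steroid and lactogenic hormones, which act on oxytocin neurons and their targets around birth, were between the ligands and *Avpr1a* in read share. Of 7 such genes 5 have a row, and 0 of them were above the median of all rows. *Esr1*, the estrogen receptor alpha gene, was at 4.49, *Nr3c2*, the mineralocorticoid receptor gene, was at 4.13, *Pgr*, the progesterone receptor gene, was at 3.91 and *Prlr*, the prolactin receptor gene, was at 2.21 in average log2 CPM. *Esr2*, the estrogen receptor known from magnocellular neurons, has no row. These genes have long spans, and per kilobase of gene 0 of the 5 were above *Avpr1a*, whereas 35.0% of all rows were below it.

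**Figure D3:**
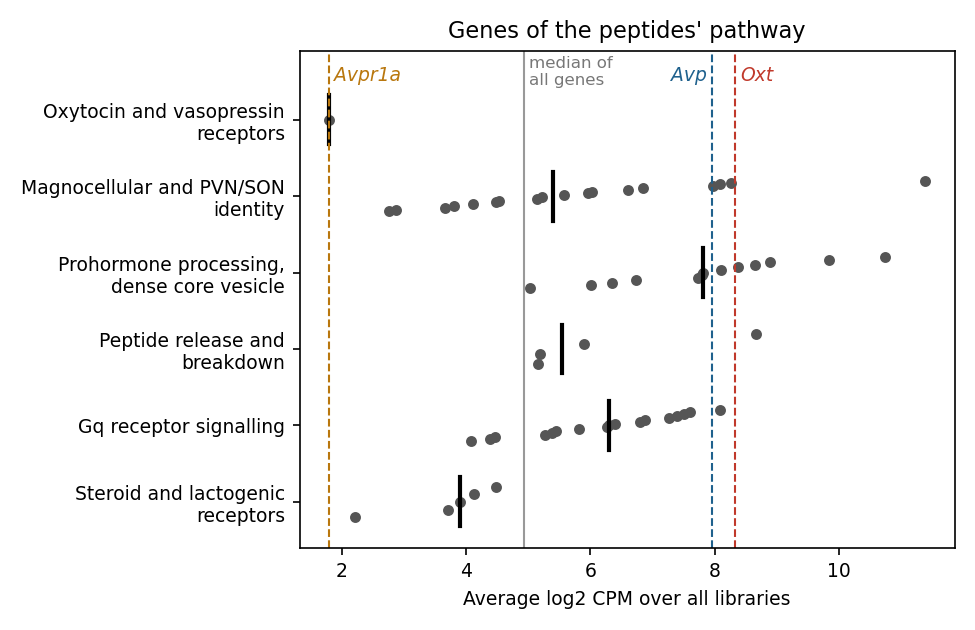
Authors' average log2 CPM over all libraries (x axis) of the genes on 6 pathway lists (rows), with 1 point for each gene and a black bar at the list's median. Dashed lines mark *Avpr1a* (1.80), *Avp* (7.96) and *Oxt* (8.33), the grey line marks the median of all genes (4.94), and the processing list has the highest median (7.81).

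*Oxt* and *Avp* lie side by side. In Rnor_6.0, the build of the deposited table, *Oxt* is on chromosome 3 from 123106694 to 123107534 and *Avp* on chromosome 3 from 123117492 to 123119460, with 9.96 kb between them. The table lists 0 genes in that interval, and RefSeq places 0 genes between them in GRCr8, where they lie on opposite strands with their 3′ ends facing each other. *Avpr1a* is on chromosome 7 from 67341080 to 67345308.

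Within 250 kb of *Oxt* the table lists 12 other genes, with average log2 CPM from 2.998 to 7.73 and a median of 5.30. In read share, 0 of these 12 were above *Avp*, and over all rows 95.1% were below *Avp*. The gene listed next to *Oxt*, the mitochondrial ribosomal protein gene *Mrps26*, was at 4.78, and the gene listed next to *Avp*, the ubiquitin ligase gene *Ubox5*, was at 3.82 in average log2 CPM. The highest of the 12 was *Ptpra*, a receptor-type tyrosine phosphatase gene, at 7.73 in average log2 CPM. It was at 0.96 per kilobase of gene on the log2 scale, against 8.58 for *Oxt* and 6.98 for *Avp*.

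**Figure D4:**
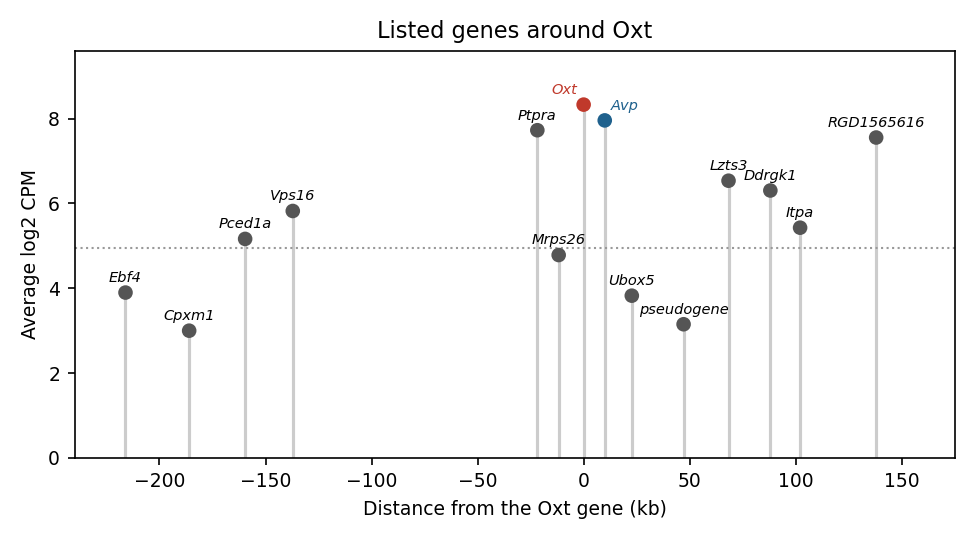
Authors' average log2 CPM over all libraries (y axis) of the 14 genes listed within 250 kb of *Oxt*, by their distance from the *Oxt* gene in kilobases (x axis), with a dotted line at the median of all genes (4.94). *Oxt* (8.33) and *Avp* (7.96) are the highest points, and *Ptpra* (7.73) follows.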

How the data were processed

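Per the labels, RNA came from the hand-dissected ARC of 10 Wistar dams at parturition, 5 on each diet. The submitters' processing notes name Trim Galore 0.5.0, STAR 2.6.0c, HTSeq 0.6.1p2 and the build Rnor_6.0. Counting was per Ensembl gene. The authors deposited 1 filtered table of 12828 genes, 12383 of them protein-coding. Ranks and percents hold among these genes only. The paper describes an initial filter on reads per gene, and its part in the genes without a row was not tested. Its average CPM over libraries is on a log2 scale, was made by the authors and carries no SD. The authors' columns of their diet comparison (a fold change, a test statistic, a p-value and an FDR) were not used. Another 10 columns hold values per library under headings that fit no label of a dam, and they entered no calculation. The planned tests between diets, which assumed values per dam, were therefore not run.

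From the table, CPM, ranks, the percent of lower rows with exact 95% binomial intervals, CPM per kilobase of gene span and medians over gene lists were computed in Python 3.11.15 with numpy 2.4.6, pandas 2.3.3 and scipy 1.17.1, and plotted with matplotlib 3.10.9. Ranking was tested on simulated data. Promoter windows are from RefSeq (GRCr8). All 4 member symbols matched there. Motifs were searched on both strands of 250 bases before the start. Members and lists were chosen with earlier results of these data known. The genes named are the members, their listed partners and the highest 3 of each pathway list or up to 4 of each marker list; others were chosen after their values were seen. The planned search for genes that vary with *Oxt* and *Avp* between dams was not run. One marker gene is left out of the text.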

Additional observations from a re-analysis of the deposited data

How the results depend on the processing

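No paired analysis was possible because no column of values could be matched to a dam or a replicate number. For the same reason the fits with other pseudocounts, filters, scalings or tests, the exact permutation test, the fits without one dam and the median over dams were not run. The percent of rows below *Oxt* (96.8%, 95% exact binomial interval from 96.5% to 97.1%) and *Avp* (95.1%, from 94.7% to 95.4%) stayed within these intervals with protein-coding genes, or with genes of an average log2 CPM of at least 1, as the reference set. For *Avpr1a* (5.71%, from 5.31% to 6.12%) it was 4.29% among protein-coding genes and 2.94% among genes of at least 1. Per kilobase of gene span, chosen after seeing the data like the limit of 1, it was 99.8% for *Oxt*, 99.3% for *Avp* and 35.0% for *Avpr1a*. The gene span includes introns, which lowers genes with long introns. The intervals cover only the number of genes ranked and no spread between dams.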

Other observations

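Several glial genes from the marker lists had more reads than *Oxt* and *Avp* in the same tissue. All 6 oligodendrocyte markers have a row, with a median average log2 CPM of 9.54, and *Mbp*, the myelin basic protein gene, was at 12.59. All 6 astrocyte markers have a row as well, with a median of 9.29, led by the water channel gene *Aqp4* at 10.22. Of these 12 genes, 9 were above *Oxt* in read share, whereas 96.8% of all rows were below *Oxt*. Per kilobase of gene, 0 of the 12 were above *Oxt*, and 99.8% of all rows were below it.

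Microglial and endothelial markers were lower, with 5 of 5 and 4 of 5 genes in the table and median average log2 CPM of 4.18 and 6.02. Of the choroid plexus list 3 of 5 genes have a row, and *Ttr*, the transthyretin gene by which this tissue is known, was at 3.06. Of the tanycyte list 4 of 5 have a row, and 2 were above the median of all rows. *Crym* was at 5.53, *Col25a1* at 5.42 and *Gpr50* at 1.78 in average log2 CPM. *Rax*, a transcription factor of tanycytes, which are cells of the third ventricle wall, was at 0.08. Of the thalamic list 6 of 6 have a row, with a median of 4.65. *Hcrt*, the orexin gene of the lateral hypothalamus, was at 5.68.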
